A study of Mus musculus with 8 samples.

Results

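Trans-synaptic adhesion genes of 3 families were examined in whole mouse retina in which the splicing factor Rbfox2 had been deleted. The set holds the neurexins Nrxn2 and Nrxn3, the neuroligins Nlgn1, Nlgn2 and Nlgn3, and the leucine-rich repeat genes Lrrtm1, Lrrtm2, Lrrtm3 and Lrrtm4. They were chosen by family name, and each of these 9 genes had 1 row among the 17500 genes of the count table. Retinas of 4 control mice (M833, M894, M896 and M898) and 4 Rbfox2-/- mice (M893, M901, M902 and M909, labelled Rbfox2 KD) were sequenced, 1 poly(A) library per mouse. All 8 mice were 6 months old on a C57BL/6J background, and the labels give tamoxifen for 4 months for every one of them. By the study's methods, Rbfox2-/- animals were Rbfox2 fl/fl and carried a Cre recombinase that tamoxifen switches on, and the age-matched controls were heterozygous Rbfox2 fl/+. The recombination was induced in adult animals. The methods describe a short course of tamoxifen, or of corn oil as vehicle. For Rbfox2-/- mice, the paper's results give the months in the labels as the time since induction, and not as the length of treatment. Whether the controls received tamoxifen or corn oil, and whether they carried Cre, is not given in the sources used here.

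Neurexins sit mainly in the presynaptic membrane and reach across the synaptic cleft, where neuroligins and the leucine-rich repeat transmembrane (Lrrtm) proteins on the postsynaptic side bind them. These pairings help to assemble transmitter release sites opposite receptors, and in the retina such synapses fill the outer and inner plexiform layers. Neurexins and neuroligins are made in many splice forms that differ in which partner they bind, and Rbfox proteins regulate alternative exons through the RNA word UGCAUG. A count per gene adds all splice forms together, so the values that follow are amounts of mRNA per gene and carry no information on which exons were used.

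Rbfox2 itself, the targeted gene, was at 149.6 ± 5.39 CPM (counts scaled to 1 common library size after TMM normalization, mean ± SD, n = 4) in controls and at 56.5 ± 3.15 CPM (n = 4) in Rbfox2-/- retinas, and the groups did not overlap. Cre removes part of the exons, so reads from the remaining ones can still be counted. The paper also reports that a few Rbfox2-stained cells were left in the ganglion cell layer. By its account the loss was more modest in amacrine cells of the inner nuclear layer. What each adds to the remaining counts was not tested. Libraries held 160630226 to 211283591 counts, and 3 counts were worth 0.0144 to 0.0189 CPM. Every marker looked at for rods, cones, bipolar, amacrine, horizontal and ganglion cells had counts. Some libraries stood apart. M901 and M902 had 277506 and 275967 counts of Xist, the RNA that silences 1 X chromosome, against 312 to 426 in the other mice. The same 2 libraries had 1.63 and 1.49 CPM of ciliary epithelium markers (15.5 to 37.9 CPM elsewhere) and lay apart on the leading principal component, which held 40.5% of variance. M909 held 27.9 CPM of surface epithelium keratins (Krt5, Krt12 and Krt14) against 0.622 to 3.46 CPM elsewhere. M833 had 444 CPM of summed ganglion cell markers, while the other 7 mice lay between 579 and 766. The summed markers of horizontal cells (99.6 to 106 CPM in controls, 81.6 to 85.6 CPM in Rbfox2-/-) and of Müller glia (4004 to 4347 and 3747 to 3927 CPM) were lower without overlap, although 1 of the 4 horizontal and 2 of the 4 Müller markers had higher levels. Those of cones (808 to 821 and 861 to 985 CPM) were higher without overlap, with 4 of 5 markers higher. All 5 rod markers had higher levels in Rbfox2-/- mice (median log2 fold change 0.13), but their sums overlapped (57070 to 61466 and 59488 to 64621 CPM). Of the 6 bipolar and the 6 amacrine cell markers, 5 each had lower levels and 1 each a higher one (medians -0.085 and -0.049). Of the 6 ganglion cell markers, 4 had higher and 2 lower levels (median 0.067). The sums of these cell types overlapped between the groups as well. Of the 4 horizontal cell markers, 1 passed the test at an adjusted p under 0.05. None of the rod, cone, bipolar, amacrine, ganglion or Müller markers did. In whole-tissue counts, fewer cells of a type and less RNA per cell cannot be told apart. By staining, the paper saw no apparent effect on calbindin, its horizontal cell marker, or on Rbpms, its ganglion cell marker. It also detected no change in retinal architecture.

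The word bound by Rbfox proteins was looked for in the 3' untranslated regions, since Rbfox proteins are known to bind there as well as near exons. In the transcript with the longest coding sequence of each gene (GENCODE M21, GRCm38), the sense strand was searched for TGCATG, the DNA spelling of UGCAUG. Of the 9 genes, 5 held it: Nlgn1 with 5 copies, Nrxn3 and Nlgn2 with 2 copies each, and Nlgn3 and Lrrtm4 with 1 copy each. Nrxn2, Lrrtm1, Lrrtm2 and Lrrtm3 held none in these windows. The first copy of each gene follows with 10 bases on either side and the motif in capitals, to show where such a word lies in 5 of the 9 mRNAs. It begins 1027, 650, 832, 1979 and 335 bases after the stop codon in the order printed. The coordinates are those of the capitals.
Nrxn3, chr12:90333437-90333442, + strand: atctgtgaaaTGCATGcaaacaaaga
Nlgn1, chr3:25432983-25432988, - strand: tagcacgatgTGCATGataatttata
Nlgn2, chr11:69824366-69824371, - strand: aacatgttctTGCATGtggatgtgtg
Nlgn3, chrX:101322241-101322246, + strand: ggagagggaaTGCATGttgaatgatt
Lrrtm4, chr6:80809524-80809529, + strand: ttttctacaaTGCATGgttcctgggc
The word was common. It stood in the first 1000 bases of 28.7% of the 9124 3' untranslated regions that are at least that long. Of the 7 adhesion genes with a region of that length, 2 held it there, Nlgn1 and Nlgn2. The genes with a copy had log2 fold changes from -0.14 (Nrxn3) to 0.02 (Nlgn3), and those without from -0.11 (Lrrtm1) to 0.06 (Lrrtm2). A match is a run of letters and not a measured site.

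The comparison of the genotypes asked whether loss of Rbfox2 moved the amount of these mRNAs. None of the 9 passed the threshold of an adjusted p under 0.05 (edgeR quasi-likelihood test, Benjamini-Hochberg over the 16797 genes tested), against 0.0655% of all genes tested. None reached an unadjusted p under 0.05 either, against 13.3% of all genes (6.87% with lower levels), or under 0.01, against 3.88%. An unadjusted p under 0.1 was found for 3 of the 9 (Nrxn3, Nlgn1 and Lrrtm1, all with lower levels), against 21.6% of all genes, or 11.1% with lower levels. The log2 fold change, Rbfox2-/- minus control, was below 0 for 7 of the 9 genes, against 49.3% of all genes, and its median over the 9 was -0.07 (all genes: 0.0016). The 95% intervals give the size of difference in whole-retina level that could have gone unseen in each gene. The lowest bound of any gene was an 18.1% lower level (Nrxn3, written as -18.1%) and the highest a 17.6% higher level (Lrrtm2). The paper found Rbfox2 protein only in ganglion, amacrine and horizontal cells. A larger change confined to some cell types could be diluted in whole tissue, and the intervals do not cover it. Only Lrrtm1 had groups that did not overlap, with all Rbfox2-/- values lower, as 3.39% of all genes did. For depth, counts per library ran from 1677 to 62997 over the 9 genes, and counting error was 0.421% to 2.26% of the value, while the SD between control mice was 1.76% to 10.4%. For the more abundant members counting error was small beside the spread between mice, whereas for Lrrtm1 it was 2.26% against an SD between controls of 3.10%, so that depth limited its precision too.

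**Figure D1:**
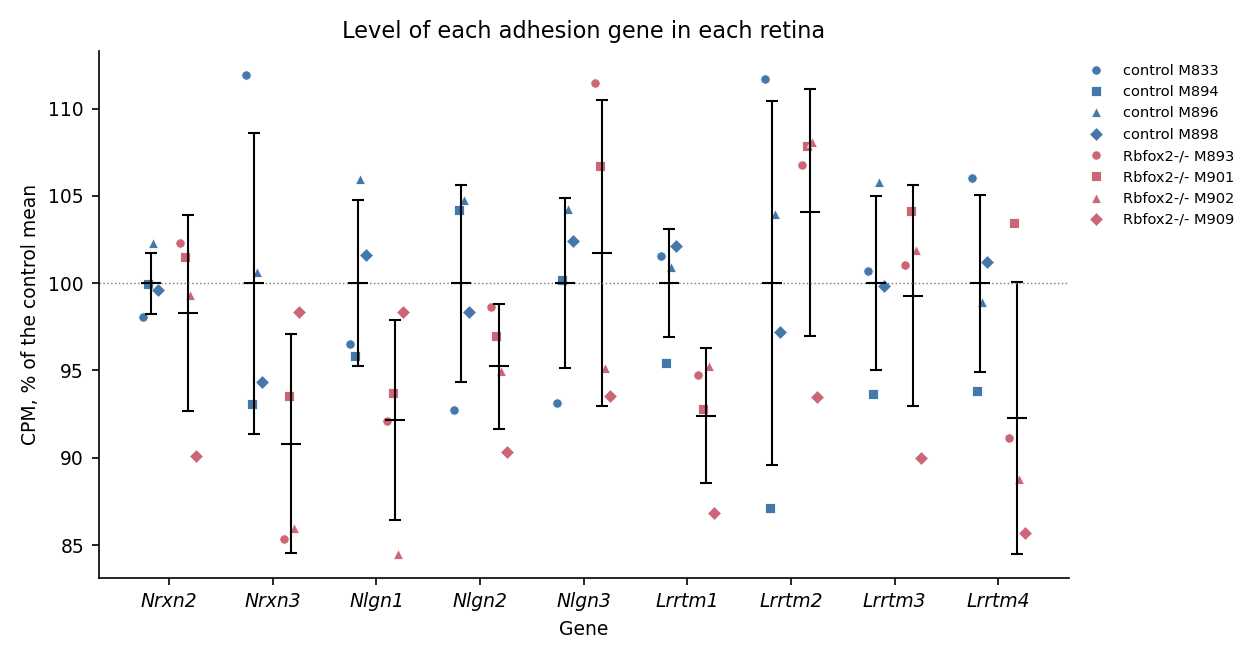
Level of each of the 9 adhesion genes in each retina, as CPM in percent of the mean of the 4 control mice (vertical axis, not starting at 0). Points are mice, black bars are means with SD (n = 4 per group). Only in Lrrtm1 do all 4 Rbfox2-/- mice lie below all 4 controls, and M909 (pink diamonds) is the lowest of the 8 in 5 genes.

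The neurexins were the first group, the presynaptic side of the pairing. Nrxn2 (19:6418731-6544169, + strand, GRCm38) was at 303 CPM in M833, 309 in M894, 316 in M896 and 308 in M898 among the controls, and at 316 (M893), 313 (M901), 307 (M902) and 278 CPM (M909) among Rbfox2-/- mice, an order of mice kept for every gene that follows. Apart from M909, which had the lowest value of all, the Rbfox2-/- mice lay within the range of the controls. The log2 fold change was -0.02 (SE 0.044, 95% interval -0.12 to 0.07; unadjusted p = 0.588, adjusted p = 0.850 by edgeR's quasi-likelihood test). Nrxn2 was thus the member with the narrowest interval.

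Nrxn3 (12:88722876-90334935, + strand) spans 1612 kb of genome, the longest of the 9. Its control values were 285, 237, 256 and 240 CPM. Its Rbfox2-/- values were 217, 238, 219 and 250.1 CPM. M833 was the highest of all mice, M893 and M902 were below every control, and M901 and M909 fell among the controls. The log2 fold change of -0.14 (SE 0.067, interval -0.29 to 0.01) was the lowest of the 9 genes (unadjusted p = 0.0651, adjusted p = 0.404, edgeR quasi-likelihood test). It leaned on M833: without that mouse it was -0.08, a value over 1.5 times smaller, and the ganglion cell markers that are low in M833 were given above, though their part in this was not tested.

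The neuroligins bind neurexins from the postsynaptic side. Nlgn1 (3:25426215-26332460, - strand) is known from excitatory synapses. It was at 31.8, 31.6, 34.9 and 33.5 CPM in controls and at 30.3, 30.9, 27.8 and 32.4 CPM in Rbfox2-/- retinas. All but M909 of the Rbfox2-/- mice lay below the lowest control. This gave a log2 fold change of -0.12 (SE 0.055, interval -0.24 to 0.0045; unadjusted p = 0.0574, adjusted p = 0.393, edgeR quasi-likelihood test). Without M901 and M902 it was -0.07, over 1.5 times smaller.

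Nlgn2 (11:69823122-69837784, - strand) is the neuroligin of inhibitory synapses, which in the retina are formed by amacrine and horizontal cells. Control values were 222, 249, 250.4 and 235 CPM, and Rbfox2-/- values 236, 232, 227 and 216 CPM. M833 and M909 were the low mice of their groups, and the 3 other Rbfox2-/- mice fell inside the control range. Its log2 fold change was -0.07 (SE 0.047, interval -0.18 to 0.03; unadjusted p = 0.166, adjusted p = 0.553, edgeR quasi-likelihood test). Leaving out M833 moved it to -0.11, and leaving out M909 to -0.05.

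Nlgn3 (X:101299168-101325963, + strand) serves excitatory and inhibitory synapses and lies on the X chromosome. It was at 43.0, 46.3, 48.2 and 47.3 CPM in controls and at 51.5, 49.3, 43.9 and 43.2 CPM in Rbfox2-/- retinas. M893 and M901 were above all controls, while M902 and M909 were near the lowest control. The group means differed by a log2 fold change of 0.02 (SE 0.063, interval -0.12 to 0.17; unadjusted p = 0.706, adjusted p = 0.903, edgeR quasi-likelihood test). Its sign rested on single libraries, since it was -0.011 without M833, -0.022 without M893 and -0.00019 without M901. M901 and M902, the libraries with high Xist, were on different sides of the control mean. In the annotation, 41.2% of the exon bases of Nlgn3 are shared with Gm21986, a transcript on the same strand, so part of its reads may have been left uncounted or assigned elsewhere.

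The Lrrtm genes code for postsynaptic leucine-rich repeat proteins, known mainly from excitatory synapses. Lrrtm1 (6:77242689-77257791, + strand) was at 11.3, 10.6, 11.2 and 11.3 CPM in controls and at 10.5, 10.3, 10.6 and 9.63 CPM in Rbfox2-/- mice. The highest Rbfox2-/- mouse (M902, 10.57 CPM) and the lowest control (M894, 10.59 CPM) were almost equal, so that the absence of overlap rests on a very small gap. For Lrrtm1 the log2 fold change was -0.11 (SE 0.053, interval -0.23 to 0.0039; unadjusted p = 0.0567, adjusted p = 0.391, edgeR quasi-likelihood test).

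Lrrtm2 (18:35209003-35215024, - strand) had 23.4, 18.2, 21.8 and 20.3 CPM in controls and 22.3, 22.6, 22.6 and 19.6 CPM in Rbfox2-/- mice. The controls spread more than in any other member, with an SD of 10.4% of the mean, and they enclosed all 4 Rbfox2-/- values. Between the groups, Lrrtm2 had a log2 fold change of 0.06 (SE 0.079, interval -0.12 to 0.23; unadjusted p = 0.487, adjusted p = 0.796, edgeR quasi-likelihood test). Its sign depended on the libraries kept, since it was -0.0032 without M894 and -0.00089 with M901 and M902 both left out. Leaving out M901 or M902 alone gave 0.039 and 0.038.

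Lrrtm3 (10:63928472-64090277, - strand) had 11.8, 10.96, 12.4 and 11.7 CPM in controls and 11.8, 12.2, 11.9 and 10.5 CPM in Rbfox2-/- mice. M909 was the lowest of all, and the other Rbfox2-/- mice fell within the controls. Its log2 fold change was -0.01 (SE 0.062, interval -0.15 to 0.13; unadjusted p = 0.868, adjusted p = 0.961, edgeR quasi-likelihood test).

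Lrrtm4 (6:80018877-80810143, + strand), which binds heparan sulfate chains of proteoglycans besides neurexins, had 13.9, 12.3, 13.0 and 13.3 CPM in controls. It had 11.9, 13.6, 11.6 and 11.2 CPM in Rbfox2-/- mice. All but M901 of the Rbfox2-/- mice were below the lowest control, and M901 was above all controls but M833. For Lrrtm4 the log2 fold change was -0.12 (SE 0.068, interval -0.27 to 0.04; unadjusted p = 0.120, adjusted p = 0.493, edgeR quasi-likelihood test). Without M901 and M902 it was -0.18 (unadjusted p = 0.0368, adjusted p = 0.789, edgeR). Gm4409, a transcript annotated on the opposite strand, overlaps 25.1% of the exon bases of Lrrtm4, and reads of the 2 cannot be told apart if strand was not used in counting.

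**Figure D2:**
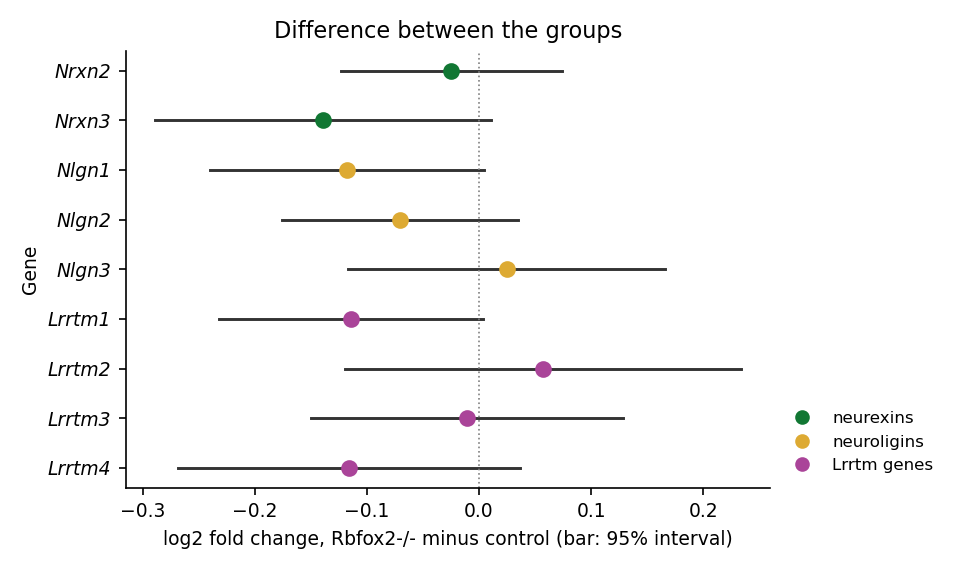
Log2 fold change of each adhesion gene (Rbfox2-/- minus control, horizontal axis) with its 95% interval from edgeR, coloured by family. All 9 intervals contain 0, and 7 of the 9 points lie below it.

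Some mice were at the extreme in several members. M909 had the lowest value of all 8 mice in 5 genes (Nrxn2, Nlgn2, Lrrtm1, Lrrtm3 and Lrrtm4), and it is the library with keratin RNA. Leaving it out gave log2 fold changes of 0.02 for Nrxn2, -0.05 for Nlgn2, -0.08 for Lrrtm1, 0.03 for Lrrtm3 and -0.08 for Lrrtm4, each nearer to 0 or above it. For Nrxn3 and Nlgn1, in which M909 was the highest Rbfox2-/- mouse, leaving it out gave -0.18 and -0.15 (unadjusted p = 0.0225 and 0.0237, adjusted p = 0.214 and 0.217, edgeR). In all these genes the direction of the move was fixed in advance, since they were picked by where M909 lay. M896, a control, was the highest of all mice in 4 genes (Nrxn2, Nlgn1, Nlgn2 and Lrrtm3), and M833 was the highest in 3 (Nrxn3, Lrrtm2 and Lrrtm4). The part of the keratin RNA and of the ganglion cell markers in these values was not tested.

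Levels of different genes were compared per length, on the deposited FPKM (counts per kilobase of transcript, scaled to library size), which used 1 fixed length per gene. Nrxn2 stood highest at 51.0 ± 1.44 FPKM in controls (SD, n = 4), followed by Nlgn2 at 48.1 ± 3.22 and Nrxn3 at 32.3 ± 2.32 FPKM. These 3 were in the upper part of the table, above 92.9%, 92.1% and 86.3% of all genes. Nlgn3 (11.97 ± 0.730 FPKM) and Nlgn1 (7.20 ± 0.395 FPKM) came next, and the Lrrtm genes closed the order: Lrrtm1 at 4.43 ± 0.136, Lrrtm4 at 4.34 ± 0.180, Lrrtm2 at 3.71 ± 0.346 and Lrrtm3 at 3.06 ± 0.152 FPKM. The order was the same by the mean over all 8 mice, which is the one tested.

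Neighbours in that order were compared within mice by an exact two-sided sign-flip permutation test over the 8 mice, adjusted over the 8 pairs. Of these pairs, 7 differed. Lrrtm1 and Lrrtm4 did not differ beyond their spread, with a mean log2 difference of 0.03 (SD 0.079, Lrrtm1 higher in 6 of 8 mice; exact permutation p = 0.297). Lrrtm4 and Lrrtm2 differed by 0.14 (SD 0.13, higher in 6 of 8 mice; exact permutation p = 0.0312, adjusted p = 0.0357), and their ranges overlapped. The other 6 pairs had the same order in 8 of 8 mice (exact permutation p = 0.0078, the smallest that 8 mice allow, adjusted p = 0.0104), and the narrowest gap among them was 0.11 between Nrxn2 and Nlgn2.

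The order depended on the length taken. With CPM per kilobase of all annotated exons in GENCODE M21, an alternative added after the data were seen, the order became Nlgn2, Nrxn2, Nrxn3, Nlgn3, Lrrtm2, Lrrtm1, Lrrtm3, Nlgn1 and Lrrtm4. Nlgn2 was then at 40.3 CPM per kb and Nrxn2 at 22.2 CPM per kb, since annotated exons of Nrxn2 add up to 13812 bases against 6084 bases behind its FPKM. Nlgn1 moved behind 3 Lrrtm genes, with 13422 bases against 4603. Nlgn2, Nrxn2 and Nrxn3 on top and Nlgn3 next were shared by both lengths, and the ranking within the Lrrtm family was not. The row of Lrrtm4 carries the identifier of a non-coding transcript.

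**Figure D3:**
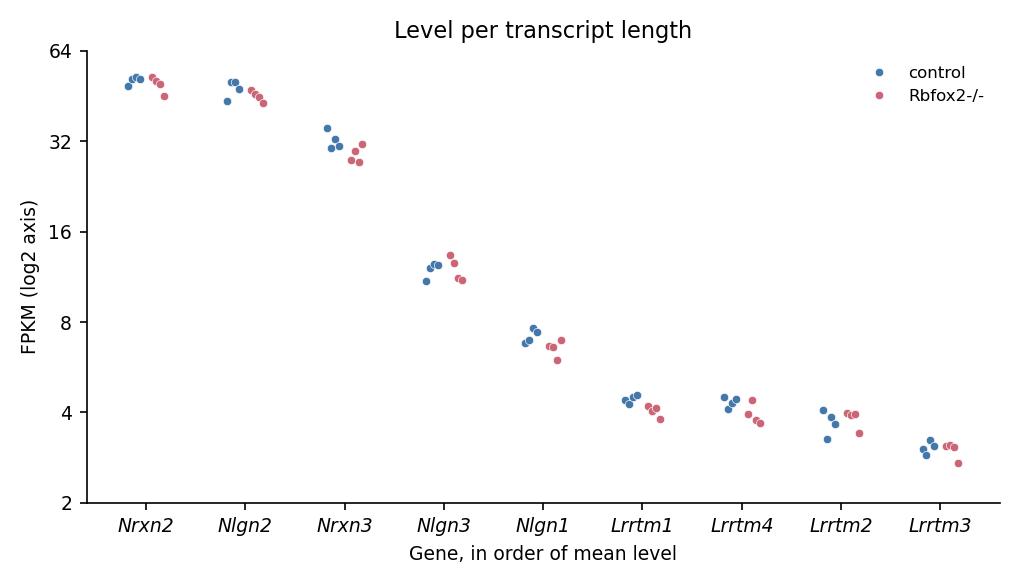
Deposited FPKM of each adhesion gene in each of the 8 retinas (vertical axis, log2-spaced), ordered by mean level, with controls in blue and Rbfox2-/- in pink. Nrxn2, Nlgn2 and Nrxn3 lie between 27.3 and 52.4 FPKM in every mouse, and the 4 Lrrtm genes between 2.72 and 4.57.

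The makeup of each family was read as shares of its summed FPKM. Nlgn2 made up 71.5% ± 0.816 (SD, n = 4) of the summed FPKM of the 3 neuroligins in controls and 70.9% ± 0.957 (n = 4) in Rbfox2-/- mice, with Nlgn3 at 17.8% ± 0.397 and 18.8% ± 0.868 and Nlgn1 at 10.7% ± 0.486 and 10.3% ± 0.822. Of the sum of Nrxn2 and Nrxn3, Nrxn2 took 61.3% ± 2.22 in controls and 63.1% ± 2.79 in Rbfox2-/- mice. Among the 4 Lrrtm genes no member dominated, with shares in controls from 19.7% ± 0.641 (Lrrtm3) to 28.5% ± 0.819 (Lrrtm1). The share of Lrrtm2 was 22.5% to 25.4% in controls and 25.2% to 26.4% in Rbfox2-/- mice, ranges that overlap. Shares were not tested, and they rest on the lengths behind FPKM.

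The members also share features of position. Lrrtm1, Lrrtm2 and Lrrtm3 each lie inside a gene of the alpha-catenin family on the opposite strand, Lrrtm1 in Ctnna2, Lrrtm2 in Ctnna1 and Lrrtm3 in Ctnna3, whereas Lrrtm4 lies in none. Alpha-catenins link cadherins to the actin cytoskeleton. Exon bases shared with the host gene were 0 for Lrrtm1 and Lrrtm3 and 95 (1.58%) for Lrrtm2. If strand was not used in counting, reads from introns of the host's unspliced RNA would also fall on the guest's exons, which was not tested.

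The host genes, which are named for this position outside the naming rule, were then read beside their guests. Ctnna2 was at 52.2 ± 2.15 CPM in controls and 49.0 ± 2.70 CPM in Rbfox2-/- mice (SD, n = 4), a log2 fold change of -0.09 (unadjusted p = 0.0924, adjusted p = 0.448, edgeR). Ctnna1 was at 134.8 ± 5.95 and 128.5 ± 5.39 CPM, a log2 fold change of -0.07 (unadjusted p = 0.137, adjusted p = 0.518, edgeR). Ctnna3, with 63 to 167 counts per library, was at 0.709 ± 0.168 CPM in controls and 0.446 ± 0.0468 CPM in Rbfox2-/- mice without overlap, a log2 fold change of -0.66 (unadjusted p = 0.00717, adjusted p = 0.239, edgeR). Its guest Lrrtm3, with values between 10.5 and 12.4 CPM in all mice, had a log2 fold change of -0.01.

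The other genes of the pathway were taken from 5 lists with 64 genes, all of which were tested (Adgrl1, a latrophilin, under its older symbol Lphn1). None had an adjusted p under 0.05 in edgeR's quasi-likelihood test. At an unadjusted p under 0.05 there were 3 with higher and 5 with lower levels in Rbfox2-/- mice, 8 of 64, a share near the 13.3% of all genes (6.87% for lower levels alone). A p under 0.01 was found for 3 of the 64, near the 3.88% of all genes. The groups did not overlap for 7 of the 64, 5 lower and 2 higher, against 7.03% of all genes (3.39% lower and 3.64% higher).

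Neurexin partners that bind the part outside the cell, such as cerebellins, C1q-like proteins, neurexophilins and calsyntenins, gave 4 genes with higher and 17 with lower levels, with a median log2 fold change of -0.05. The cerebellins link neurexins to glutamate receptors of the delta class, and Cbln1 ranged from 15.6 to 16.8 CPM in controls and from 13.9 to 15.1 CPM in Rbfox2-/- mice. These groups did not overlap, and the log2 fold change was -0.15 (unadjusted p = 0.0143, adjusted p = 0.275, edgeR). Lphn1, a presynaptic latrophilin, was at 284 ± 6.44 and 264 ± 9.13 CPM (SD, n = 4), again without overlap (log2 fold change -0.10; unadjusted p = 0.0171, adjusted p = 0.284, edgeR). Clstn3, a calsyntenin of the postsynaptic membrane, was higher, with 142, 156, 148 and 144 CPM in controls and 180.2, 190.4, 165 and 155 CPM in Rbfox2-/- mice. Only M909 overlapped the controls. The log2 fold change of 0.23 (SE 0.062) had an unadjusted p = 0.00446 and an adjusted p = 0.216 in edgeR. DESeq2, which called 460 genes in all against 11 by edgeR, gave an adjusted p = 0.0324. With 1 surrogate variable the log2 fold change was 0.19 (unadjusted p = 0.0389, adjusted p = 0.742, edgeR). Without M901 and M902 it was 0.18 (unadjusted p = 0.0292, adjusted p = 0.782, edgeR).

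Of the 8 proteins that bind the neurexin tail inside the cell, 5 had higher and 3 lower levels, with a median of 0.0019. Cask, the kinase-like scaffold of that tail, was at 99.8 ± 0.661 CPM in controls and 94.2 ± 3.94 CPM in Rbfox2-/- mice (SD, n = 4), without overlap (log2 fold change -0.08; unadjusted p = 0.0379, adjusted p = 0.353, edgeR).

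Of the 15 scaffolds and regulators of neuroligins, 5 had higher and 10 lower levels, with a median of -0.03. Dlg4, which codes for PSD-95, was at 739, 722, 664 and 622 CPM in controls and at 749, 773, 803 and 830.4 CPM in Rbfox2-/- mice, without overlap. Its log2 fold change was 0.20 (SE 0.060; unadjusted p = 0.00741, adjusted p = 0.239, edgeR). DESeq2 gave an adjusted p = 0.0419. With 1 surrogate variable the log2 fold change of Dlg4 was 0.17 (unadjusted p = 0.0436, adjusted p = 0.755, edgeR). Without M901 and M902 it was 0.20 (unadjusted p = 0.0306, adjusted p = 0.782, edgeR). Dlg1 (SAP97) had a log2 fold change of 0.16 (unadjusted p = 0.00712, adjusted p = 0.239, edgeR), which was 0.10 without M901 and M902. Dlg3 (SAP102) was at 70.7 ± 1.89 and 64.9 ± 3.61 CPM (SD, n = 4), without overlap, with a log2 fold change of -0.12 (unadjusted p = 0.0193, adjusted p = 0.293, edgeR). Dlg2 (PSD-93), the remaining gene of that scaffold family, had a log2 fold change of -0.04. Photoreceptor terminals contain much PSD-95. Of the markers given above, all 5 for rods and 4 of 5 for cones had higher levels in Rbfox2-/- mice. The rod sums overlapped, however, and none of these markers had an adjusted p under 0.05 in edgeR. The part of photoreceptors in the level of Dlg4 was not tested. Mdga2, which binds neuroligins and keeps neurexins off them, was at 61.8 ± 4.12 and 56.0 ± 2.03 CPM with overlap (log2 fold change -0.14; unadjusted p = 0.0201, adjusted p = 0.297, edgeR).

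**Figure D4:**
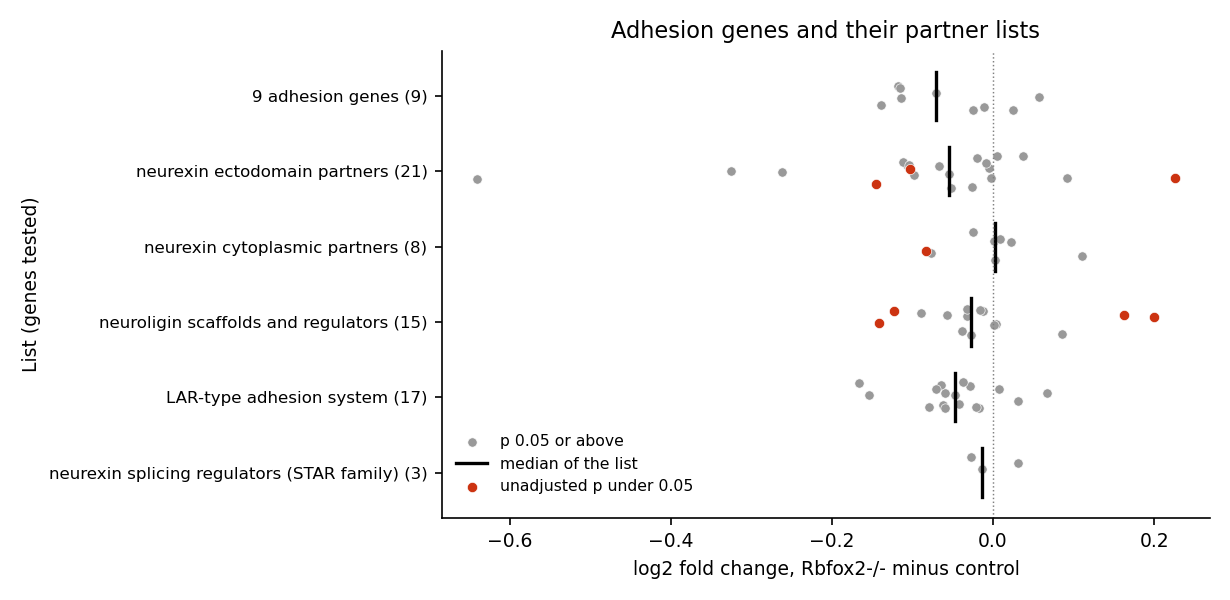
Log2 fold change (Rbfox2-/- minus control, horizontal axis) of the 9 adhesion genes and of 64 partner genes in 5 lists, 1 point per gene, jittered vertically. Black bars are list medians and red points the 8 partner genes with an unadjusted p under 0.05. The medians lie between -0.07 and 0.0019, and the leftmost point is the weakly expressed C1ql4, with 8 to 29 counts per library.

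The receptor phosphatases and their partners, an adhesion system parallel to neurexins that includes Ptprd, Ptprs and the Slitrk genes, gave 3 genes with higher and 14 with lower levels (median -0.05), and none of the 17 had an unadjusted p under 0.05. The STAR family of splicing regulators, which control a neurexin exon, was the smallest list. Khdrbs1, Khdrbs2 and Khdrbs3 had log2 fold changes between -0.03 and 0.03, none with an unadjusted p under 0.05. Rbfox1 and Rbfox3, the paralogs that bind the same RNA word, had log2 fold changes of -0.04 (unadjusted p = 0.582, adjusted p = 0.847, edgeR) and 0.04 (unadjusted p = 0.640, adjusted p = 0.875, edgeR).

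Finally, the course of each member over the 8 libraries was set beside that of every other gene. Over the 36 pairs of members, Pearson's r of log2 CPM ran from -0.48 (Nrxn3 with Nlgn3) to 0.80 (Nrxn2 with Lrrtm3), with a median of 0.34 and 28 above 0. The gene most alike among 13747 with a mean of at least 1 CPM was Grin2b, an NMDA receptor subunit, for Nrxn3 (r = 0.98), and Slc32a1, the vesicular transporter of GABA and glycine, for Lrrtm3 (r = 0.96). It was Nptn, the adhesion protein neuroplastin, for Lrrtm4 (r = 0.96), Mab21l2, a gene of eye development, for Nlgn3 (r = 0.99) and Lpcat4, a phospholipid acyltransferase, for Nlgn2 (r = 0.97). For Nrxn2 it was Luzp1 (r = 0.96), for Nlgn1 AW554918 (r = 0.99), for Lrrtm1 Fam46a (r = 0.98) and for Lrrtm2 Pcyt1a, an enzyme of phosphatidylcholine synthesis (r = 0.98). These are descriptions over 8 libraries, each the highest among 13747 genes, and the points share libraries and their makeup of cells. Slc32a1 is also among the amacrine cell markers used here.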

How the data were processed

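Retinal poly(A) RNA of 4 control and 4 Rbfox2-/- mice was analysed, grouped by the sample titles. The authors aligned read pairs to mm10 with STAR, kept uniquely mapped reads and deposited raw counts per gene made with HTSeq, of which both RefSeq and Ensembl annotations are named; use of strand is not given in the sources used here. Base calling was with CASAVA 1.8.2, per the labels. The authors also deposited FPKM values, which equal counts divided by 1 length per gene and by the library's total, and these were used for levels between genes. Columns with a signal adjusted by the authors and their own fold changes and p-values were not used (16 columns of values per sample in all).

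From the counts, filterByExpr of edgeR 4.0.16 (R 4.3.3) kept 16797 of 17500 genes. They were normalized by TMM and tested by the quasi-likelihood test without covariates, with Benjamini-Hochberg adjustment over these genes. CPM used TMM-scaled library sizes, and SE came from the log2 fold change and F. FPKM were compared on the log2 scale. No 2 libraries agreed within sampling noise (the chi-square per degree of freedom was at least 32.3), so each mouse was 1 replicate. The fit was tested on simulated data. Depth was 160630226 to 211283591 counts on genes, and limits from 3 counts cover counting error only.

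Alternatives were upper-quartile and DESeq2 size factors, genes left unfiltered, a minimum of 10 counts in each library, DESeq2 1.42.0, edgeR's likelihood ratio test, limma-voom and limma-trend (limma 3.58.1), 1 surrogate variable (sva 3.50.0), and leaving out mice. The members and lists were chosen with earlier results of these data known. All 9 members are named, and of each partner list genes with an adjusted p under 0.05 or else up to 4 with the lowest p under 0.05, and for each member the gene with the highest correlation over libraries (log2 CPM, prior count 2, mean of at least 1 CPM). Positions, exons and untranslated regions are from GENCODE M21.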

Additional observations from a re-analysis of the deposited data

Results flagged for a closer look

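Lrrtm2 in the Rbfox2-/- mouse M909 was at 19.6 CPM, while the 3 other Rbfox2-/- mice lay between 22.3 and 22.6 CPM. The gap to its nearest neighbour was 0.908 of the range of the group, above the 95% critical value of Dixon's test for 4 samples (0.829). It was the only one of 36 groups of 4 values examined, where chance alone would give about 1.8. The value lies inside the control range of 18.2 to 23.4 CPM.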

How the results depend on the processing

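None of the 9 adhesion genes was called under any of the 18 alternatives, and over the 162 resulting tests the smallest adjusted p was 0.214 (Nrxn3 without M909). The log2 fold change kept its sign in 153 of them. It reversed for 4 genes. With 1 mouse left out, it ran from -0.044 to 0.015 for Nrxn2 (above 0 without M909), from -0.022 to 0.063 for Nlgn3 (below 0 without M833, M893 or M901), from -0.0032 to 0.11 for Lrrtm2 (below 0 without M894) and from -0.041 to 0.034 for Lrrtm3 (above 0 without M896 or M909). Lrrtm2 was also at -0.041 with 1 surrogate variable and at -0.00089 without M901 and M902. An unadjusted p under 0.05 occurred in 14 tests: for Nrxn3 in 4, for Lrrtm1, Lrrtm4 and Nlgn1 in 3 each, and for Nlgn2 in 1. These tests share libraries, so repeats for a gene are not separate findings. Of all genes, 1027 (without M901 and M902) to 2992 (without M909) had such a p per alternative, and 13.3% in the main fit. The count of genes called at an adjusted p under 0.05 depended strongly on the test. It was 11 by the quasi-likelihood test, 460 by DESeq2, 164 by the likelihood ratio test and 5 with 1 surrogate variable. Leaving out M901 and M902 gave 1, and leaving out 1 mouse gave 5 to 35. DESeq2 called 1 ectodomain partner (Clstn3) and 1 neuroligin scaffold (Dlg4). The causes were not tested. The order by FPKM was the same with log2(FPKM + 1) and without M901 and M902, where 6 of the 8 neighbour pairs differed. With lengths of all annotated exons the order changed. No paired analysis was possible because the mouse numbers are not shared between the groups. Median log2 fold changes of all genes were within 0.1 of 0 in every fit. With 4 mice per group, intervals for the whole-retina level reached 18.1% lower (-18.1%) and 17.6% higher levels. Differences within these bounds may have gone unseen. Larger ones confined to some cell types may have too, and splice forms were not measured.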
